A study of Mus musculus with 16 samples.

Results

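The NRF2 and antioxidant genes described here are 10 genes that were chosen by symbol and matched to 10 of the 55401 Ensembl genes in the deposited tables, namely Nfe2l2, Keap1, Nqo1, Hmox1, Gclc, Gclm, Txnrd1, Srxn1, Gsr and Sod2. The study deleted Pdha1, the gene of the alpha chain of pyruvate dehydrogenase (E1), in mouse T cells and sequenced polyadenylated RNA of CD8+ T cells after culture. Effector (TE) cells were grown with interleukin-2 and memory (TM) cells with interleukin-15 after activation with peptide. The methods describe these cultures with OT-I cells, and do not say so for the RNA-seq itself. The 16 libraries fell into 4 groups of 4, which were compared: WT TE (libraries 1 to 4), TPdh-/- TE (libraries 5 to 8), WT TM (libraries 9 to 12) and TPdh-/- TM (libraries 13 to 16).

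TPdh-/- mice carry a floxed Pdha1 allele and a CD4-cre transgene, so the deletion takes place in developing T cells of both lineages, well before the cultures began. The mice were young adults of both sexes. The study describes the RNA-seq by a number of mice per condition that differs from the 4 libraries per group. No source used here ties a library to a mouse, so p-values measure the spread between these libraries. Whether the WT mice carried the floxed allele or the cre transgene is not given either. Library totals ranged from 53007257 to 73507566 expected counts, and all 10 genes passed the filter on low counts, which left 15277 genes for testing. Library 12 (WT TM) stood apart from the others of its group, with a chi-square per degree of freedom of 53.7 to 70.3 against them. Library 5 (TPdh-/- TE) stood apart from libraries 7 and 8 (61.3 and 45.6) and not from library 6 (23.4). The remaining pairs of replicates lay at 8.11 to 43. The 7 markers of CD8+ T cells were present in every group, and 5 of them were lower in TPdh-/- TM and 6 in TPdh-/- TE, with none higher, their summed TPM ranging from 3550 to 3760 against 4440 to 4640 in TM and from 2770 to 3070 against 3560 to 3820 in TE. Pdha1 itself differed between genotypes in TM (log2 difference -0.22, adjusted p = 0.00556) and did not pass the test in TE (-0.07 on the log2 scale, adjusted p = 0.285). Each library has 1 value per gene, which can include reads from exons that remain after deletion, so this value does not check the genotype labels. The study itself reports that Pdha was not detected by qPCR in splenic T cells of TPdh-/- mice. It also reports that the protein was absent by immunoblot.

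NRF2, encoded by Nfe2l2, is a transcription factor that KEAP1 holds in the cytosol and delivers to an E3 ubiquitin ligase for degradation. Oxidants and electrophiles modify cysteines of KEAP1, and NRF2 then accumulates, pairs with small MAF proteins and binds antioxidant response elements of genes for glutathione synthesis, thioredoxin reduction, quinone and heme breakdown and NADPH supply. BACH1 and BACH2 occupy the same elements as repressors. In T cells, glutathione and thioredoxin are known to be needed for the growth that follows activation.

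Levels are given as CPM, read counts relative to the library total and scaled by the trimmed mean of M-values (TMM), unless TPM, which is also divided by transcript length, is named. Differences are log2 differences ± their standard error over libraries (SE), and adjusted p-values are those of the edgeR quasi-likelihood test, corrected by Benjamini-Hochberg over all 15277 genes. A gene is said to be higher or lower, or to rise or fall, where its adjusted p lies under 0.05. In the TM cultures, 2 of the 10 genes were higher in TPdh-/- cells (Srxn1 and Hmox1) and none lower, against 18.3% of all genes tested that changed in either direction, 11.0% higher and 7.27% lower. In the TE cultures, 7 of the 10 genes were higher in TPdh-/- cells and none lower, against 31.6% of all genes tested, 17.3% higher and 14.3% lower. The 7 were Nfe2l2, Nqo1, Hmox1, Gclc, Srxn1, Gsr and Sod2, and their number was 4 when library 1, 3, 4 or 6 was left out. Libraries of the genotypes did not overlap for 3 of the 10 genes in TM, against 20.8% of all genes tested, and for 7 in TE, against 33.1%.

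The balance of higher and lower genes in the TE background depended on scaling, with 2641 genes higher and 2182 lower under TMM, 3710 and 1242 when only library totals were used, and 3612 and 688 on log2(TPM + 1). The median log2 difference between genotypes was 0.32 over the 10 genes in TE, where that of all genes tested lay at 0.00, and -0.01 in TM, where the median of all genes was likewise 0.00. The genotype effect in TM differed from that in TE for 7 of the 10 genes, compared to 15.6% of all genes tested, 8.05% above and 7.51% below 0. Of these 7, Hmox1 and Srxn1 had the larger genotype difference in TM, and Nfe2l2, Nqo1, Gclc, Gsr and Sod2 had the larger one in TE. The number was 4 without library 9. For this difference of differences, TMM gave 1230 genes above and 1148 below 0, library totals 921 and 1801, and log2(TPM + 1) 520 and 2277.

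**Figure D1:**
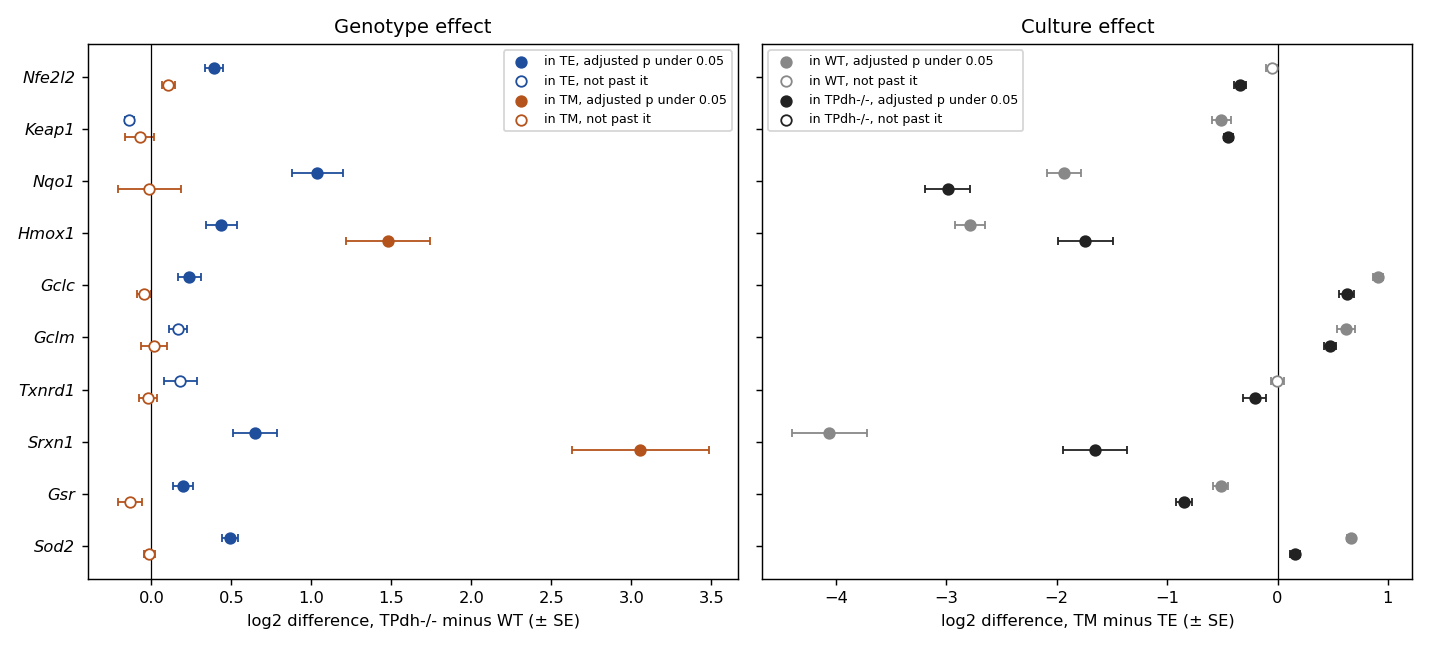
Log2 differences of the 10 genes (x axis, ± SE, n = 4 libraries per group) between genotypes in TE and TM (left) and between TM and TE within each genotype (right), with filled points for an adjusted p under 0.05. In the left panel only Hmox1 and Srxn1 have filled points in TM, at 1.48 and 3.05, while 7 genes have filled points in TE.

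Nfe2l2, the gene of NRF2 itself, lies on the minus strand at chr2:75675513-75704641 (GRCm38). It stood at 43.1, 39.4, 41.5 and 41.8 CPM in the 4 WT TE libraries and at 57.7, 52.4, 50.1 and 57.6 CPM in the 4 TPdh-/- TE libraries. Every TPdh-/- TE library lay above every WT TE library. The rise was 0.39 ± 0.06 on the log2 scale (adjusted p = 4.46e-05), or 1.31-fold. In TM, the values were 42.1, 38.6, 37.4 and 41.6 CPM in WT and 42.9, 44.0, 42.2 and 43.1 CPM in TPdh-/- cells. The TM groups did not overlap either, by a margin between 42.1 and 42.2 CPM, but the log2 difference of 0.11 ± 0.04 did not pass the test (adjusted p = 0.20). The genotype difference was smaller in TM than in TE (-0.29 ± 0.07 on the log2 scale, adjusted p = 0.0199), a call that was lost without library 2 or library 9 (adjusted p = 0.0565 and 0.0567).

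Keap1, which encodes the adaptor that targets NRF2 for degradation, lies on the minus strand at chr9:21229730-21239361 and shares exon positions with Gm16754. Because the library kit does not keep strand, reads of these 2 genes cannot be fully told apart. Keap1 ranged from 56.5 to 61.4 CPM in WT TE and from 52.2 to 54.3 CPM in TPdh-/- TE. The groups did not overlap, and the log2 difference of -0.14 ± 0.03 did not pass the test (adjusted p = 0.125). It passed without library 12 (-0.15, adjusted p = 0.0162), without libraries 5 and 12 (adjusted p = 0.0472) and with the 2 groups alone (adjusted p = 0.0404). With library totals in place of TMM it was -0.06 (adjusted p = 0.556), and on log2(TPM + 1) -0.01 (limma, adjusted p = 0.945). In TM, the genotypes overlapped at 37.8 to 48.3 CPM in WT and 37.2 to 41.6 CPM in TPdh-/- cells, and the highest value, 48.3, belonged to library 12. The ratio of Keap1 to Nfe2l2 in TPM was 1.04 ± 0.07 (SD, n = 4) in WT TE, 0.722 ± 0.053 in TPdh-/- TE, 0.663 ± 0.072 in WT TM and 0.578 ± 0.026 in TPdh-/- TM. Mean Keap1 was 21.5 and 21.34 TPM in WT and TPdh-/- TE, where mean Nfe2l2 was 20.65 and 29.65 TPM. The transcript length that enters TPM differed between the cultures for Nfe2l2, as given below.

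Srxn1 showed the largest genotype difference of the 10 genes in TM. It encodes sulfiredoxin, which restores peroxiredoxins whose active cysteine has been over-oxidized by peroxide, and lies on the plus strand at chr2:152105516-152111376. The WT TM libraries 9 to 12 held 17, 12, 41 and 23 counts of Srxn1, or 0.265, 0.222, 0.702 and 0.384 CPM. The TPdh-/- TM libraries 13 to 16 held 128, 135, 246 and 271 counts, or 2.20, 2.40, 3.71 and 4.81 CPM. The lowest TPdh-/- library thus lay well above the highest WT library, library 11. The rise was 3.05 ± 0.43 on the log2 scale, or 8.31-fold (adjusted p = 1.58e-06), and it was 3.04 (adjusted p = 1.95e-05) without libraries 5 and 12.

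In TE, Srxn1 was at 6.17, 6.27, 6.61 and 7.29 CPM in WT and at 8.62, 10.6, 9.31 and 12.8 CPM in TPdh-/- cells. These groups did not overlap, and Srxn1 was higher in TPdh-/- TE by 0.65 ± 0.14 on the log2 scale (adjusted p = 0.0346). Leaving out library 1, 2, 3, 4, 6 or 8 ended that call, with log2 differences of 0.52 to 0.69 and adjusted p-values of 0.0518 to 0.111. The genotype difference was larger in TM by 2.41 ± 0.45 on the log2 scale (adjusted p = 0.000322). On log2(TPM + 1), a scale that compresses differences between low levels, this was 0.53 with a limma adjusted p of 0.12.

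The bases before the RefSeq start of Srxn1 are shown because of its large difference in TM and its number of motif matches. Of the 7 genes with a promoter entry, it held the most matches only through motifs added after the sequences had been seen. RefSeq promoter windows (GRCm38.p6, 250 bases before to 50 after the start) were matched for 7 of the 10 genes, in 9 windows. Hmox1, Gclc and Gsr had no entry. Windows were searched on both strands for TGACNNNGC, a short form of the antioxidant response element held by 12.4% of all 32851 promoter windows. Srxn1 held no more matches to this motif than Nfe2l2, Gclm or Txnrd1 did. TGAGNNNGC, held by 17.6%, and the AP-1-type element TGAGTCA, held by 5.2%, were added after the sequences had been seen, and TGAGTCA can overlap TGAGNNNGC. In the sequence below, 5′ to 3′ on the plus strand, capitals mark matches to the last 2 motifs.
Srxn1, chr2:152105274-152105523: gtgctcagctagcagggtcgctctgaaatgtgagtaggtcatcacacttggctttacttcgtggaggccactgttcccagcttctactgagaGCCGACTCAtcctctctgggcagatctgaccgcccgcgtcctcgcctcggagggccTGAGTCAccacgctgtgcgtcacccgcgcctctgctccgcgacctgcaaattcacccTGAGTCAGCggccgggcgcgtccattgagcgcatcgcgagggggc

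Counting from the start, with -1 as the base before it, the Srxn1 matches lie at -158 to -150 (TGAGNNNGC on the opposite strand), at -102 to -96 (TGAGTCA) and at -45 to -37, where both motifs overlap. One match to TGACNNNGC, at 28 to 36 after the start, is not shown. The other 3 genes with a match held 1 match each to TGACNNNGC, shown here in capitals with 10 flanking bases, in the direction of transcription.
Nfe2l2, -240 to -232: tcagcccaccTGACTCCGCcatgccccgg
Gclm, -134 to -126: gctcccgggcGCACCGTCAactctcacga
Txnrd1, -92 to -84 of 1 of its 3 starts: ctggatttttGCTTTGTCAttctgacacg

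The windows of Keap1, Nqo1 and Sod2 held no match to any of the 3 motifs. A match is a description of the sequence and was not tested against expression.

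Hmox1 was the other gene that rose in TPdh-/- TM cells. It encodes heme oxygenase 1, which breaks heme down to biliverdin, carbon monoxide and iron, and lies on the plus strand at chr8:75093621-75100589. It stood at 0.811, 1.11, 0.753 and 0.834 CPM in WT TM, on 44 to 60 counts, and at 2.56, 1.46, 2.64 and 3.11 CPM in TPdh-/- TM, on 82 to 175 counts. The groups did not overlap, although library 14 lay closer to the WT values than the other 3. The rise was 1.48 ± 0.26 on the log2 scale, or 2.79-fold (adjusted p = 2.97e-05).

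In TE, Hmox1 was at 5.59, 5.70, 6.76 and 6.10 CPM in WT and at 7.58, 7.73, 7.91 and 9.48 CPM in TPdh-/- cells, again without overlap. The log2 difference of 0.44 ± 0.10 passed the test narrowly (adjusted p = 0.0458). The call was lost when any 1 of libraries 1 to 9, 11, 13 or 15 was left out (log2 differences of 0.35 to 0.48, adjusted p-values of 0.0522 to 0.139). The genotype difference of Hmox1 was larger in TM than in TE by 1.04 ± 0.28 (adjusted p = 0.00829). On log2(TPM + 1) it was larger by 0.31, with a limma adjusted p of 0.239.

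Macrophages express Hmox1 strongly, and summed markers of macrophages and monocytes stood, like Hmox1, above WT in TPdh-/- cells of both cultures. From TE to TM in WT cells, mean Hmox1 went from 6.04 to 0.877 CPM and the mean marker sum from 11.8 to 6.27 TPM. In TPdh-/- cells, mean Hmox1 went from 8.18 to 2.44 CPM and the mean marker sum from 19.1 to 32.3 TPM. The summed TPM of 11 such markers ranged from 5.65 to 6.66 in WT TM, from 22.8 to 38.5 in TPdh-/- TM, from 10.2 to 13.8 in WT TE and from 14.2 to 23.7 in TPdh-/- TE. Of the 11, 7 passed the filter on low counts, of which 6 were higher in TPdh-/- TM, and 4 were higher and 1 lower in TPdh-/- TE. Most of the sum came from Lyz2 and Cd68, at 24.1 and 4.47 TPM in TPdh-/- TM. The defining markers Csf1r and Adgre1 stood at 0.532 and 0.325 TPM there, against 0.105 and 0.12 in WT TM, and Cd163 was at 0 in all 4 WT TE libraries and at 0.03 TPM or less in every other library. Markers of other cell types were also higher in TPdh-/- TM. Of 5 markers of natural killer cells 3 were, namely Ncr1 (0.593 TPM in WT and 7.95 in TPdh-/- TM), Klrb1c (0.915 and 10.6) and Klra8 (0.355 and 4.13), as were the 2 tested of 5 dendritic cell markers, 1 of the 3 tested of 4 plasma cell markers (Jchain), 1 of 4 B cell markers (Ms4a1) and 1 of the 2 tested of 4 mast cell and basophil markers (Cpa3). None of these lists had a marker that was lower there. The part of any of these cells in the levels of Hmox1 or Srxn1 was not tested, and in bulk RNA a change in the number of cells of a type cannot be told apart from a change of RNA per cell.

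**Figure D2:**
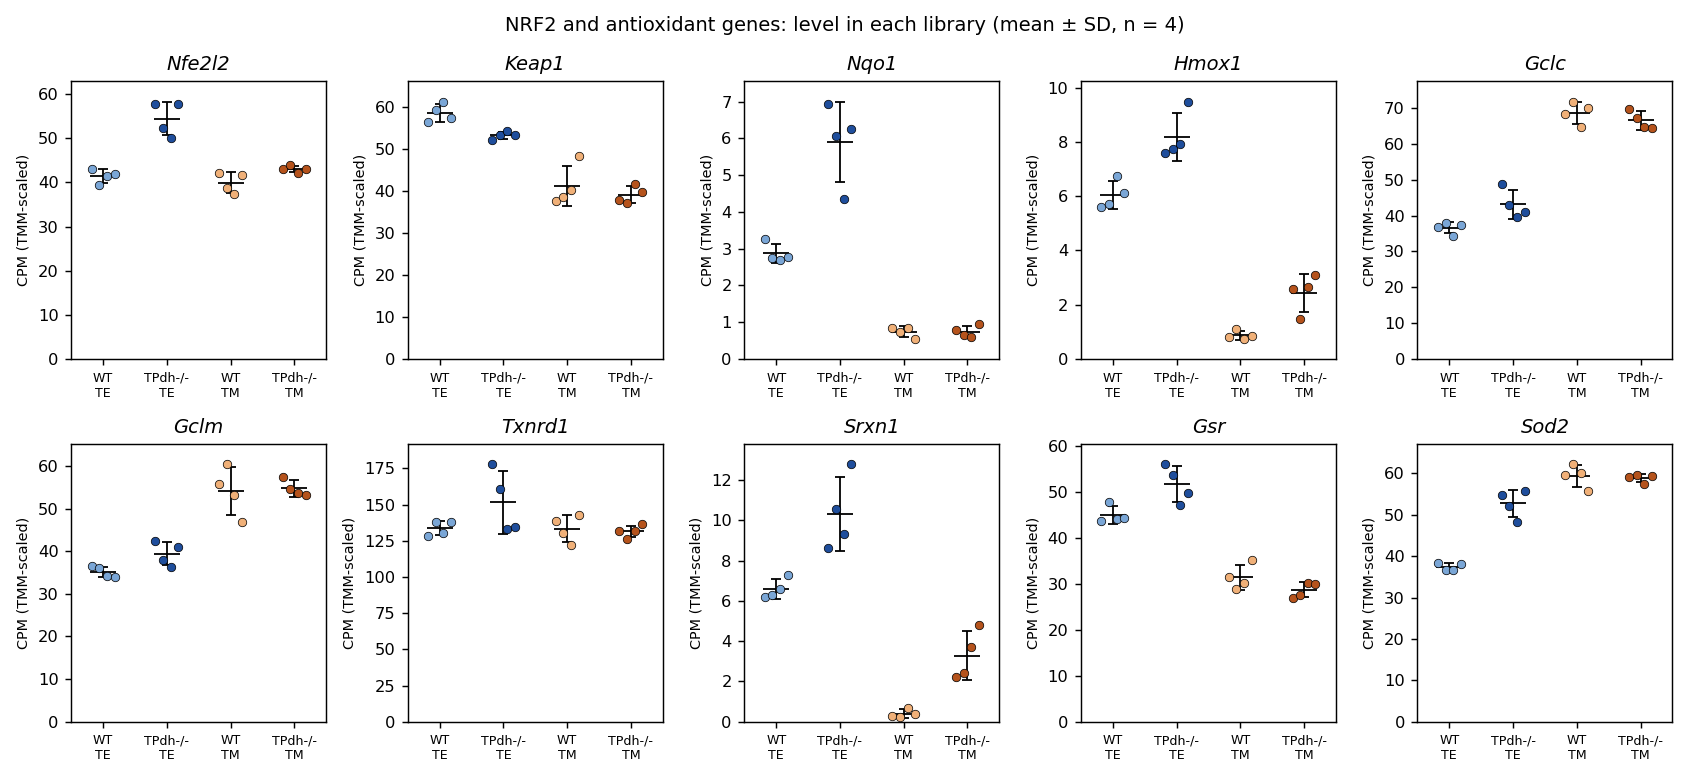
CPM of each of the 10 genes in every library (points), with the mean and SD of the 4 libraries per group (bars), on axes that start at 0. Srxn1, Hmox1 and Nqo1 stand low in the TM groups, while Gclc, Gclm and Sod2 stand higher there than in WT TE.

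Nqo1 passed the test between genotypes in TE and not in TM. It encodes a quinone reductase that is widely read as an NRF2 target, and lies on the minus strand at chr8:107388225-107403206. The WT TE libraries were at 3.26, 2.74, 2.7 and 2.77 CPM, on 160 to 209 counts, and the TPdh-/- TE libraries at 6.93, 6.07, 4.35 and 6.25 CPM, on 309 to 451 counts. All TPdh-/- TE libraries lay above all WT TE libraries, library 7 being the lowest of them. The rise was 1.04 ± 0.16 on the log2 scale, or 2.05-fold (adjusted p = 9.24e-05). In TM, Nqo1 fell to 33 to 54 counts per library in both genotypes, with 0.747 ± 0.141 CPM (SD, n = 4) in WT and 0.744 ± 0.154 CPM in TPdh-/- cells. The log2 difference in TM was -0.01 ± 0.20 (adjusted p = 0.98). The difference between the cultures in genotype effect was itself called, at -1.05 ± 0.25 (adjusted p = 0.00846), in the direction opposite to that of Hmox1 and Srxn1.

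Gclc and Gclm encode the catalytic and the modifier subunit of glutamate-cysteine ligase, the rate-limiting enzyme of glutathione synthesis. Gclc (plus strand, chr9:77754535-77794485) was at 36.7, 37.9, 34.4 and 37.3 CPM in WT TE and at 48.7, 43.1, 39.6 and 41.1 CPM in TPdh-/- TE. The groups did not overlap, with library 5 the highest, and Gclc rose by 0.24 ± 0.07 on the log2 scale (adjusted p = 0.00658). In TM its level was higher and the genotypes overlapped, at 64.7 to 71.8 CPM in WT and 64.3 to 69.8 CPM in TPdh-/- cells (log2 difference -0.05, adjusted p = 0.658). The genotype effect differed between the cultures by -0.28 (adjusted p = 0.0317), which was lost without library 1, 3, 4, 6, 9, 10, 12, 14, 15 or 16 (-0.28 to -0.24, adjusted p = 0.0578 to 0.0896).

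Gclm (plus strand, chr3:122245557-122270732) shares exon positions with Gm17494 and Gm6061, so its counts carry the same uncertainty as those of Keap1. It ranged from 34 to 36.5 CPM in WT TE and from 36.4 to 42.3 CPM in TPdh-/- TE, where library 7 fell within the WT range. The log2 difference of 0.17 ± 0.06 did not pass the test (adjusted p = 0.0748), though it did without library 7 or 12, at 0.19 and 0.16 (adjusted p = 0.0396 to 0.0496). It also passed with the 2 groups alone (adjusted p = 0.0439) and with library totals in place of TMM (0.245, adjusted p = 0.0114). On log2(TPM + 1) it was 0.36 (limma, adjusted p = 0.00159), and the DESeq2 Wald test gave 0.16 (adjusted p = 0.103). In TM the values were 46.9 to 60.4 CPM in WT and 53.1 to 57.5 CPM in TPdh-/- cells. The ratio of Gclm to Gclc in TPM was 2.63 ± 0.18 in WT TE, 2.66 ± 0.27 in TPdh-/- TE, 1.87 ± 0.20 in WT TM and 2.00 ± 0.07 in TPdh-/- TM (SD, n = 4).

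Gsr encodes glutathione reductase, which returns oxidized glutathione to its reduced form with NADPH, and lies on the plus strand at chr8:33652523-33698163. It was at 43.6, 47.8, 44.0 and 44.4 CPM in WT TE and at 56, 53.6, 47.2 and 49.7 CPM in TPdh-/- TE, with library 7 just under library 2. The rise of 0.20 ± 0.06 on the log2 scale (adjusted p = 0.0322) was lost without library 1, 3, 4, 5 or 6 (0.16 to 0.18, adjusted p = 0.084 to 0.101). In TM the genotypes overlapped, at 28.8 to 35.2 CPM in WT and 26.9 to 30.2 CPM in TPdh-/- cells. The genotype effects in the 2 cultures differed by -0.33 ± 0.10 (adjusted p = 0.0271), and this call was lost without library 1, 3, 4, 5, 6, 9, 12, 13 or 14 (-0.32 to -0.26, adjusted p = 0.051 to 0.0688).

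Txnrd1 encodes cytosolic thioredoxin reductase, a selenoprotein, and lies on the plus strand at chr10:82833951-82897712. It was at 128, 138, 131 and 138 CPM in WT TE and at 178, 161, 133 and 134 CPM in TPdh-/- TE. Libraries 5 and 6 lay above all WT libraries and libraries 7 and 8 within them, and the log2 difference of 0.18 ± 0.11 did not pass the test (adjusted p = 0.085). It passed without library 7 or 8, at 0.23 (adjusted p = 0.0305 to 0.0411), and with library totals in place of TMM (0.26, adjusted p = 0.0132). On log2(TPM + 1) it was 0.32 (limma, adjusted p = 0.032), and the DESeq2 Wald test gave 0.175 (adjusted p = 0.113). In TM the values were 122 to 143 CPM in WT and 126 to 136 CPM in TPdh-/- cells (log2 difference -0.02, adjusted p = 0.883).

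Sod2 encodes the manganese superoxide dismutase of the mitochondrial matrix and lies on the plus strand at chr17:13006846-13040063. It stood at 38.4, 36.7, 36.7 and 38.1 CPM in WT TE and at 54.7, 52.1, 48.3 and 55.7 CPM in TPdh-/- TE. The lowest TPdh-/- value lay well above the highest WT value, and the rise was 0.49 ± 0.05 on the log2 scale, or 1.41-fold (adjusted p = 1.36e-06), the smallest adjusted p of the 10 genes in TE. In TM, Sod2 was at 59.6, 62.2, 60.0 and 55.8 CPM in WT and at 59.0, 59.5, 57.4 and 59.4 CPM in TPdh-/- cells. These overlapped (log2 difference -0.01 ± 0.03, adjusted p = 0.896), and the difference between the cultures in genotype effect was -0.50 ± 0.06 (adjusted p = 0.000118). Sod1, the cytosolic superoxide dismutase, did not pass the test between genotypes in either culture (0.03 in TE and 0.06 in TM on the log2 scale, adjusted p = 0.758 and 0.533).

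TM was then compared with TE within each genotype. In WT cells, 8 of the 10 genes differed between the cultures, 3 higher and 5 lower in TM, against 68.6% of all genes tested, 34.3% in each direction. In TPdh-/- cells all 10 differed, 3 higher and 7 lower, against 67.7% of all genes tested, 33.0% higher and 34.7% lower. The count in WT lies near this background of widespread change. The libraries of the cultures did not overlap for 8 of the 10 genes in WT, against 63.9% of all genes tested, and for 9 in TPdh-/- cells, against 59.8%. The TMM background in WT was 5243 genes higher and 5236 lower in TM, compared to 6015 and 4543 with library totals and 6436 and 3368 on log2(TPM + 1), where the median of all genes moved to 0.12. Values of both culture comparisons are set beside the genotype comparisons that use the same libraries, and they are not independent of them.

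The genes of lowest level fell furthest. Srxn1 fell by 4.06 ± 0.34 on the log2 scale from WT TE to WT TM, or 16.7-fold (adjusted p = 2.25e-09), and by 1.65 ± 0.29 in TPdh-/- cells. Hmox1 fell by 2.79 ± 0.13 in WT, or 6.89-fold, and by 1.74 ± 0.25 in TPdh-/- cells. Nqo1 fell by 1.94 ± 0.15 in WT and by 2.99 ± 0.20 in TPdh-/- cells, or 7.93-fold (adjusted p = 2.73e-10). No TM library overlapped a TE library of its genotype for any of these 3 genes. TPdh-/- TM cells held less Srxn1 and Hmox1 than WT TE cells did, at 3.28 ± 1.22 against 6.58 ± 0.51 CPM and at 2.44 ± 0.70 against 6.04 ± 0.53 CPM (SD, n = 4), a comparison that was not tested.

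Gsr fell by 0.52 in WT and by 0.85 in TPdh-/- cells, and Keap1 by 0.51 and 0.45, all on the log2 scale and with adjusted p-values of 1.32e-05 or less. The 2 subunits of glutamate-cysteine ligase rose in TM instead. Gclc rose by 0.91 ± 0.04 in WT and 0.63 ± 0.07 in TPdh-/- cells, and Gclm by 0.62 ± 0.08 and 0.47 ± 0.06. Txnrd1 did not pass the test in WT (0.00 ± 0.06, adjusted p = 0.989) and fell by 0.21 in TPdh-/- cells (adjusted p = 0.0268), a call lost without library 5, 6, 13, 14 or 15 (-0.20 to -0.12, adjusted p = 0.0526 to 0.125).

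Nfe2l2 and Sod2 gave different answers for the culture effect per read and per length. In CPM, Nfe2l2 did not pass the test in WT (-0.05 ± 0.05, adjusted p = 0.413), whereas on log2(TPM + 1) it was higher in WT TM by 0.31 (limma, adjusted p = 0.000554). In TPdh-/- cells it fell by 0.34 in CPM (adjusted p = 3.87e-05), and the difference was -0.12 on log2(TPM + 1) (limma, adjusted p = 0.104). Sod2 rose in TM by 0.66 in WT and by 0.16 in TPdh-/- cells in CPM (adjusted p = 0.0089 for the latter), while in TPdh-/- cells it stood at -0.15 on log2(TPM + 1) (limma, adjusted p = 0.103). RSEM divides each gene by the length of its transcripts weighted by their estimated abundance, and that length moved with culture for both genes. The scaling differed as well. With library totals in place of TMM, Nfe2l2 in WT stood at 0.03 (adjusted p = 0.62). On log2(TPM + 1) the median of all genes for culture in WT was 0.12. The share of length or of scaling in these answers was not tested.

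For Nfe2l2, with 2 transcripts in the tables, the length was 2395 to 2437 bases in the 8 TE libraries and 2100 to 2177 bases in the 8 TM libraries. For Sod2, with 8 transcripts, it was 2761 to 3055 bases in TE and 3274 to 3705 bases in TM. For Gclm, with 7 transcripts, it was 1317 to 1447 bases in TE and 1503 to 1671 bases in TM. TE and TM did not overlap for any of the 3 genes, which were singled out after all 10 lengths had been seen, and no test was made. Within each culture the genotypes overlapped for all 3.

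**Figure D3:**
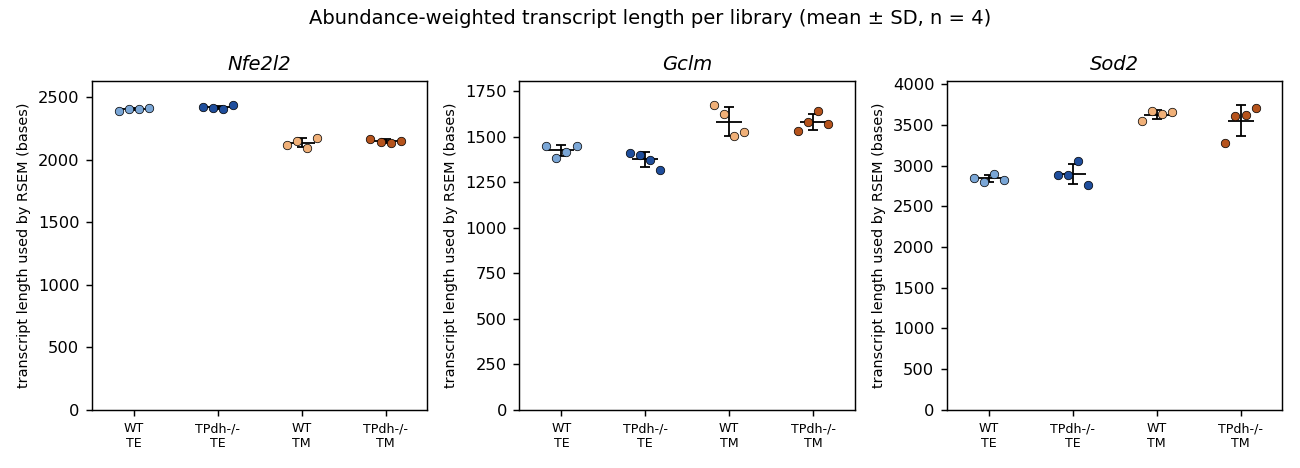
Transcript length that RSEM used for Nfe2l2, Gclm and Sod2 in each library (points, in bases) with mean and SD of 4 libraries per group, on axes that start at 0. Nfe2l2 is shorter in TM than in TE, and Gclm and Sod2 are longer.

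Per length, Txnrd1 had the highest level of the 10 genes in every group, from 48.6 TPM in WT TE to 61.3 TPM in TPdh-/- TE, followed by Gclm at 32.9 to 50.1 TPM. Txnrd1 and Gclm overlapped between libraries in WT TM (48.1 to 71.2 and 47.1 to 53.9 TPM) and in TPdh-/- TM, and not in TE. Keap1, Nfe2l2, Gsr, Sod2 and Gclc formed the middle of the order, at 12.5 to 29.7 TPM. In WT TE, Keap1, Nfe2l2 and Gsr overlapped as neighbours. Hmox1, Srxn1 and Nqo1 were the 3 lowest in every group. In WT TM, Hmox1 and Nqo1 overlapped at 0.70 to 1.04 and 0.57 to 0.78 TPM, above Srxn1 at 0.10 to 0.41 TPM. The ratio of Txnrd1 to Gsr in TPM was 2.45 ± 0.09 in WT TE and 2.43 ± 0.19 in TPdh-/- TE, and 3.65 ± 0.20 and 3.84 ± 0.23 in WT and TPdh-/- TM (SD, n = 4).

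Other genes of the same pathways were taken from 7 lists of regulators and enzymes. Without the 10 genes, the lists held 98 genes, of which 93 were tested. In TM, 12 were higher and 11 lower in TPdh-/- cells, or 24.7% of them, against 18.3% of all genes tested. In TE, 24 were higher and 21 lower, or 48.4%, against 31.6%. From TE to TM, 20 rose and 54 fell in WT cells, or 79.6%, against 68.6% of all genes, and 16 rose and 55 fell in TPdh-/- cells, or 76.3%, against 67.7%. The genotype effect differed between the cultures for 20 of the 93, or 21.5%, against 15.6%. Mgst1, Sod3, Slc40a1, Me3 and Alox5 were too low to test.

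**Figure D4:**
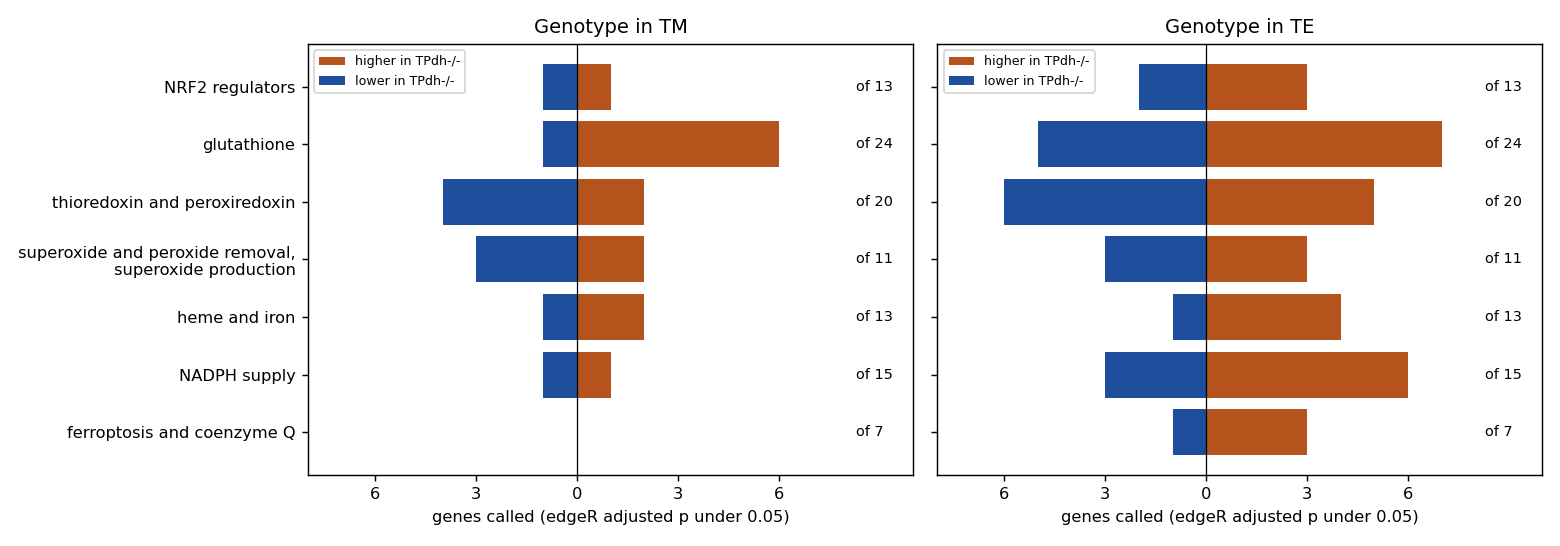
Number of genes of each of the 7 lists, the 10 genes included where a list holds them, that were higher (right of 0) or lower (left of 0) in TPdh-/- cells in TM and in TE, with the number tested at the right edge. The glutathione list has 6 higher and 1 lower in TM, and 7 higher and 5 lower in TE.

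Among 11 further regulators, 1 was higher and 1 lower in TPdh-/- TM, and 2 were higher and 2 lower in TPdh-/- TE. Mafg, a small MAF partner of NRF2, was higher in both, by 0.25 in TM and 0.35 in TE on the log2 scale (adjusted p = 0.00411 and 0.000132). Mafk, another small MAF, was lower in TPdh-/- TM by 0.30 (adjusted p = 0.0083) and rose from WT TE to WT TM by 0.76. Nfe2l1, a relative of NRF2 that controls proteasome genes, was higher in TPdh-/- TE by 0.61 (adjusted p = 0.000101). Of the repressors, Bach2 was lower in TPdh-/- TE by 0.28 (adjusted p = 0.0304) and higher in WT TM than in WT TE by 0.72, while Bach1 passed no genotype test (-0.01 in TE, 0.08 in TM). The call of Bach2 in TE was lost without library 3, 4, 5, 6 or 8 (adjusted p = 0.0536 to 0.0964) and with library totals in place of TMM (adjusted p = 0.138).

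Among 21 further glutathione genes, 6 were higher and 1 lower in TPdh-/- TM, and 5 were higher and 5 lower in TPdh-/- TE. Slc7a11, the cystine importer of system xc-, was low throughout, with 19 counts over the 4 WT TE libraries, 237 in TPdh-/- TE, 15 in WT TM and 140 in TPdh-/- TM. It was higher in TPdh-/- cells by 3.56 in TE and 3.17 in TM on the log2 scale (adjusted p = 1.7e-05 and 0.000199). Its partner chain Slc3a2 was higher in TPdh-/- TE by 0.61 (adjusted p = 1.43e-06) and did not pass in TM (-0.11). Glrx, glutaredoxin 1, fell from 229 ± 12 CPM in WT TE to 46.3 ± 4.9 CPM in WT TM (SD, n = 4), and was at 80.3 ± 15.9 CPM in TPdh-/- TM, a rise of 0.80 over WT (adjusted p = 4.42e-05). In TE it went the other way, at 189 ± 8 CPM in TPdh-/- cells (log2 difference -0.28, adjusted p = 0.0471), without overlap. That call of Glrx was lost without library 1, 2, 4, 5, 6, 7 or 10 (adjusted p = 0.0554 to 0.09) and without libraries 5 and 12 (adjusted p = 0.0651). It was also lost with library totals in place of TMM (-0.20, adjusted p = 0.127) and on log2(TPM + 1) (-0.08, limma, adjusted p = 0.642). Ggt1, which breaks down extracellular glutathione, was lower in TPdh-/- cells by 1.16 in TM and 0.60 in TE.

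Among 18 further genes of the thioredoxin and peroxiredoxin list, 1 was higher and 4 lower in TPdh-/- TM, and 4 were higher and 6 lower in TPdh-/- TE. Txnip, which binds and inhibits thioredoxin, fell by 0.60 in TPdh-/- TM and by 0.66 in TPdh-/- TE on the log2 scale. Prdx4, the peroxiredoxin of the endoplasmic reticulum, was lower in TPdh-/- TM by 0.66 (adjusted p = 9.94e-05). Prdx1, a cytosolic substrate of sulfiredoxin, was higher in TPdh-/- TE by 0.36 (adjusted p = 0.0236) and did not pass in TM (0.10, adjusted p = 0.591). The call in TE was lost without library 3, 4, 5 or 6 (0.28 to 0.35, adjusted p = 0.0568 to 0.0831). Sesn2, a stress-induced sestrin, was higher in TPdh-/- TE by 0.85. Sesn1 was higher in TPdh-/- cells of both cultures, by 0.33 in TM and 0.27 in TE. The call of Sesn1 in TE was lost without library 3, 7 or 8 (adjusted p = 0.0513 to 0.0736).

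In the heme and iron list without Hmox1, 1 of 12 was higher and 1 lower in TPdh-/- TM, and 3 were higher and 1 lower in TPdh-/- TE. Tfrc, the transferrin receptor, went from 485 to 997 CPM in TE, a rise of 1.04 on the log2 scale (adjusted p = 5.64e-06), and did not pass in TM (0.03, adjusted p = 0.885). Slc48a1, a heme transporter, was higher in TPdh-/- cells by 0.30 in TM and 0.27 in TE. Hmox2, the constitutive heme oxygenase, passed no genotype test (0.06 in TE and -0.08 in TM). Of 14 further genes for NADPH supply, 1 was higher and 1 lower in TPdh-/- TM, and 5 were higher and 3 lower in TPdh-/- TE. Me1, cytosolic malic enzyme, was higher in TPdh-/- TE by 1.76 (adjusted p = 0.000112), and in TM it rested on 4 counts over the WT and 34 over the TPdh-/- libraries. Mthfd2, of mitochondrial folate metabolism, was higher in TPdh-/- TE by 0.69, and G6pdx, the entry to the pentose phosphate pathway, passed no genotype test (0.11 in TE, adjusted p = 0.102). Nnt was counted for 2 overlapping gene models that share exons and is uncertain. On log2(TPM + 1), the TM calls of Mafg, Mafk, Slc7a11, Sesn1, Slc48a1 and Me1 were lost (limma, adjusted p = 0.0508 to 0.2).

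In the list of superoxide and peroxide enzymes without Sod2, 2 of 10 genes were higher and 3 lower in TPdh-/- TM, and 2 were higher and 3 lower in TPdh-/- TE. Cybb, the catalytic subunit of the phagocyte NADPH oxidase that makes superoxide, was higher in TPdh-/- cells of both cultures. The log2 differences were 2.43 in TM and 2.36 in TE (adjusted p = 0.000364 and 0.00166), beside the macrophage marker values given above. The call of Cybb in TE was lost on log2(TPM + 1) (limma, adjusted p = 0.0547). Ncf1, another subunit, was lower in TPdh-/- TE by 1.09. Of 7 genes for ferroptosis and coenzyme Q, none passed in TM with edgeR (1 had an unadjusted p under 0.05, and 1 passed with the DESeq2 Wald test). In TPdh-/- TE 3 were higher and 1 lower, among them Acsl4, an acyl-CoA synthetase for long fatty acids, by 0.30 and Aifm2, which reduces coenzyme Q, at -0.46.

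Across the 16 libraries, which fall into 4 groups and share depth and scaling within a library, the log2 CPM of Gclc and Gclm had a Pearson r of 0.963, that of Hmox1 and Srxn1 0.943 and that of Nqo1 and Gsr 0.946. Nfe2l2 had an r of 0.725 with Nqo1, 0.61 with Srxn1 and -0.34 with Gclc. The tested genes most like each of the 10 by the same measure were Cdc42bpb for Nfe2l2 (r = 0.952), Smpd1 for Keap1 (0.983), Khdc1a for Srxn1 (0.986), Plxdc2 for Hmox1 (0.98), Enah for Nqo1 (0.987), Snhg17 for Gclc (0.994), Yipf6 for Gclm (0.984), Phgdh for Gsr (0.992), Hyou1 for Txnrd1 (0.933) and Inpp4b for Sod2 (0.98). These are descriptions over 4 group levels, and no p is given.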

How the data were processed

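Polyadenylated RNA from 16 cultures (4 groups of 4) was sequenced as read pairs from a kit that does not keep strand. Per the labels, the authors aligned reads with STAR 2.7.6a and quantified genes with RSEM 1.3.3 on GRCm38 (mm10), and DESeq2 is named without a version. The annotation release was not given in the sources used here. The deposited tables hold, for each of 55401 genes and each library, the expected count, TPM and FPKM that the authors obtained from RSEM. Expected counts were rounded for testing, TPM was used for levels per length, and FPKM was not used. Groups were taken from the sample labels.

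Of the gene IDs, 55141 matched GENCODE M21 (GRCm38), which gave symbols and positions, and 260 did not. Genes were filtered with filterByExpr (minimum count 10, minimum total 15), scaled by TMM, and fitted with edgeR 4.0.16 (R 4.3.3) in 1 quasi-likelihood model over all 16 libraries with 1 mean per group. In all, 5 contrasts were tested, and p-values were adjusted by Benjamini-Hochberg over 15277 genes with a threshold of 0.05. Such a test borrows the spread across genes (common biological coefficient of variation 0.104). SEs come from log2 CPM with a prior count of 2. The script was tested on simulated data. Alternatives were DESeq2 size factors in edgeR, no filter on low counts, the DESeq2 1.42.0 Wald test, limma 3.58.1 with trend on log2(TPM + 1), which understates changes of low genes, the 2 groups alone, leaving out each library, and leaving out libraries 5 and 12. Scaling by library totals alone was added after seeing the data.

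The 10 genes, the 7 pathway lists and the alternatives were chosen with earlier results of these data known, so counts over them are descriptions. Further genes were named by a rule: up to 3 called genes per list and comparison, by smallest adjusted p and with at least 1 CPM in the higher group, a short set always named, and for each of the 10 the genes of highest Pearson r. Of the genes that rule gave, those with the clearest roles are described. Some are not reported here. Sequences are from RefSeq (GRCm38.p6).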

Additional observations from a re-analysis of the deposited data

Results flagged for a closer look

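One library stood away from the others of its group by Dixon's criterion at the 95% level, which chance meets in about 1 in 20 groups, and 40 groups (10 genes in 4 groups) were examined. It was library 1 of WT TE for Nqo1, at 3.26 CPM, where the other 3 WT TE libraries lay between 2.7 and 2.77 CPM. All 4 TPdh-/- TE libraries lay above it.

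For 7 genes the genotype difference in TM was not that in TE, by the edgeR test of the difference itself. On the log2 scale, as TM minus TE, it was 2.41 for Srxn1 and 1.04 for Hmox1, where the larger genotype difference was in TM. It was -1.05 for Nqo1, -0.50 for Sod2, -0.33 for Gsr, -0.29 for Nfe2l2 and -0.28 for Gclc, where the larger one was in TE. Those of Srxn1, Nqo1, Hmox1 and Sod2 kept an adjusted p under 0.05 with any 1 library left out.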

How the results depend on the processing

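No paired analysis was possible because the replicate numbers run from 1 to 16 over the groups and none is shared. The number of the 10 genes called between genotypes in TM was 2 under every alternative, including each library left out (2 to 2). In TE it was 7, with 4 to 9 when 1 library was left out (4 without replicate 1, 3, 4 or 6) and 5 to 9 under the other alternatives. For the culture effect it was 8 to 8 in WT and 9 to 10 in TPdh-/- cells with 1 library left out, and for the difference between cultures in genotype effect 4 to 7 (4 without replicate 9), and under the other alternatives these were 8 to 9, 7 to 10 and 5 to 7. The direction reversed in 2 results, both for TM against TE on log2(TPM + 1): Nfe2l2 in WT became 0.31 and Sod2 in TPdh-/- cells -0.15, where the length RSEM used also differed between cultures. On the same scale the median of all genes moved by over 0.1, to 0.12 for culture in WT and -0.12 for the difference of differences. Over all differences of the 10 genes and alternatives that leave out 1 library, 746 kept their status as called or not, 49 lost the call and 5 gained it. Over the other alternatives 319 kept that status, 11 lost the call and 8 gained it. Changes of sign between values that passed in neither fit, 25 in all, were counted among those that kept their status and not as reversals. Scaling by library totals was chosen after seeing the data. Srxn1 and Nqo1 in TM rest on as few as 12 and 33 counts per library, which limits the precision of their differences.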
